A study of Arabidopsis thaliana with 18 samples.

Results

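A set of 98 Arabidopsis genes lost most of its transcript in the *bdrs* triple mutant. Its median level relative to the wild type was 0.900 to 0.953 in the *bdr* single mutants and 0.915 in the *fpa* mutant. Individual members ran from 0.458 to 1.50 in *bdr1* and from 0.672 to 2.06 in *fpa*. The genes were selected on these same libraries from 33602 genes in the count table. A gene entered the set when it had a mean of at least 2 CPM (counts per 1000000 counts of the library) in wild type (WT), a *bdrs* mean of at most 0.5 of the lowest mean among WT and the single mutants, all *bdrs* libraries below all WT libraries, and an *fpa* mean of at least 0.67 of WT. The 98 genes are 0.588% of the 16654 genes with a WT mean of 2 CPM or more. Over those 16654 genes the median relative to WT was 0.955 in *bdr1*, 0.987 in *bdr2*, 0.988 in *bdr3* and 0.958 in *fpa*. The levels of the 98 members in *bdrs*, in the single mutants and in *fpa* relative to WT therefore describe the choice and carry no test.

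All plants were of the Col-0 ecotype. RNA was taken from whole 8-day-old seedlings raised on MS plates at 21 °C, where each day had 16 lit hours and 8 dark ones, once the sown seeds had been kept cold and dark for 4 days. The 6 groups were WT, *bdr1* (the insertion line SALK_142108C), *bdr2* (CS852350), *bdr3* (SALK_059905), *bdrs* (the triple mutant) and *fpa* (the *fpa-7* allele), with 3 libraries each and 18 in all. Each mutant is represented by 1 line, and the study's methods call its libraries biological triplicates without saying how the seedlings of a group were kept apart. The p-values measure the spread between these libraries. In whole seedlings, fewer cells of a type and less RNA per cell cannot be told apart.

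BORDER (BDR) proteins of plants combine a SPOC domain with a central domain like that of TFIIS, a transcription elongation factor, and act where 1 gene ends close to the start of another. In tandem genes, which lie on the same strand, polymerase that runs on past the end of the upstream gene can hinder the start of the downstream gene, which is called transcriptional interference. FPA is an RNA-binding SPOC protein known for its part in the choice of transcript 3′ ends. The comparison asked which transcripts fell in the triple mutant below their level in every single mutant, and how those genes lie in the genome. No double mutant was included, so which of the BDR proteins are needed together cannot be told.

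Totals over genes ranged from 11566600 to 21084793 counts a library. Nuclear ribosomal RNA took 1.65% of the counts in *bdrs* library 1, 1.78% in *fpa* library 3 and 1.01% in *bdr1* library 3, and from 0.0531% to 0.659% in the other 15. Counts over *BDR1* (AT5G25520) averaged 29.9 ± 4.97 CPM in WT (SD, n = 3), 6.98 ± 1.05 in *bdr1* and 3.58 ± 0.582 in *bdrs*. Counts over *BDR2* (AT5G11430) averaged 15.8 ± 1.06 CPM in WT, 6.65 ± 1.03 in *bdr2* and 7.97 ± 0.445 in *bdrs*. Over *BDR3* (AT2G25640) the means were 8.21 ± 0.614 CPM in WT, 6.67 ± 2.16 in *bdr3* and 7.52 ± 1.44 in *bdrs*, so the whole-gene count did not check that label. *FPA* (AT2G43410) stood at 40.8 ± 8.11 CPM in WT and 22.9 ± 1.02 in *fpa*. Leaf photosynthesis markers summed to 61164 to 67373 CPM in WT and 53965 to 68984 in *bdrs*, root markers to 205 to 224 and 223 to 258, and none of either list was at 0.

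Most of the genes begin within a short stretch after the end of a neighbour on the same strand. The stretches between the end of the upstream gene and the start of the member are shown for 7 genes, because these few bases hold the whole of the sequence between the paired transcripts. They come from the RefSeq TAIR10.1 assembly and are given 5′ to 3′ on the strand of the genes. Capitals mark a match to TATAAA (the TATA element) or TGGGCC (the site II element of many ribosomal and mitochondrial genes), read on both strands. The AT4G11410 stretch is chr4:6947414-6947475, that of AT1G79740 chr1:30007191-30007287, that of AT5G52370 chr5:21261337-21261352, that of AT3G59980 chr3:22155642-22155704, and that of *NdhM* (AT4G37925) chr4:17831620-17831730, all on the minus strand. The *PnsL1* (AT2G39470) stretch is chr2:16476142-16476197 and that of AT1G78910 is chr1:29665079-29665165, both on the plus strand.
AT4G11410: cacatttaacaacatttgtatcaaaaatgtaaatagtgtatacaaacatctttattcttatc
AT1G79740: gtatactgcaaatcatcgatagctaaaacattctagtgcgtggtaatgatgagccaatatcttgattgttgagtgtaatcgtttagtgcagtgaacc
AT5G52370: aacaaaacccacctag
AT3G59980: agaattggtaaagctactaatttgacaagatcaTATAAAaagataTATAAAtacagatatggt
*NdhM*: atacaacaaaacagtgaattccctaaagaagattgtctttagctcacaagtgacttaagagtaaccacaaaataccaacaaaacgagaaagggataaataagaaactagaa
*PnsL1*: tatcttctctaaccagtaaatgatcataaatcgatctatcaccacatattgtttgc
AT1G78910: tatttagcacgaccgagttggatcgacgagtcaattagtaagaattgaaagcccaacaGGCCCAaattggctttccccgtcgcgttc

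Of these 7 stretches, AT3G59980 carried a pair of TATAAA matches and AT1G78910 a site II match (as GGCCCA), and the other 5 held neither motif. Over the 250 bp upstream of every member's start, TATAAA was present in 29 of the 98 (29.6%), against 46.0% of 16472 other genes with a WT mean of 2 CPM or more and 42.3% of the 3580 of those with a close tandem neighbour. TGGGCC was present in 8 members (8.16%), against 17.6% and 17.7%. The G-box CACGTG was in 6 members (6.12%, against 7.78% and 6.56%) and the seed-type RY motif CATGCA in 5 (5.10%, against 7.43% and 6.73%). The median A+T content was 68.0% in the members, 68.8% in the other genes and 68.0% in those with a close tandem neighbour. For members close to a neighbour, these windows include the end of the upstream gene.

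The members spanned a wide range of loss and mostly low to moderate expression. Their median ratio of *bdrs* to WT was 0.289, with quartiles of 0.206 and 0.371 and a range from 0.00969 to 0.455. In 7 members the ratio was 0.1 or less, in 23 it was 0.2 or less and in 52 it was 0.3 or less. The median WT level was 9.53 CPM (range 2.00 to 779), 44 members had 10 CPM or more, and 3 had 100 or more. Per exon length, the median WT level was 5.78 RPKM (CPM per kilobase of exon), against 8.35 for all genes with 2 CPM or more. By type, 96 were protein coding, 1 was a long non-coding RNA (AT2G14115) and 1 a transcribed pseudogene (AT1G16550).

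**Figure D1:**
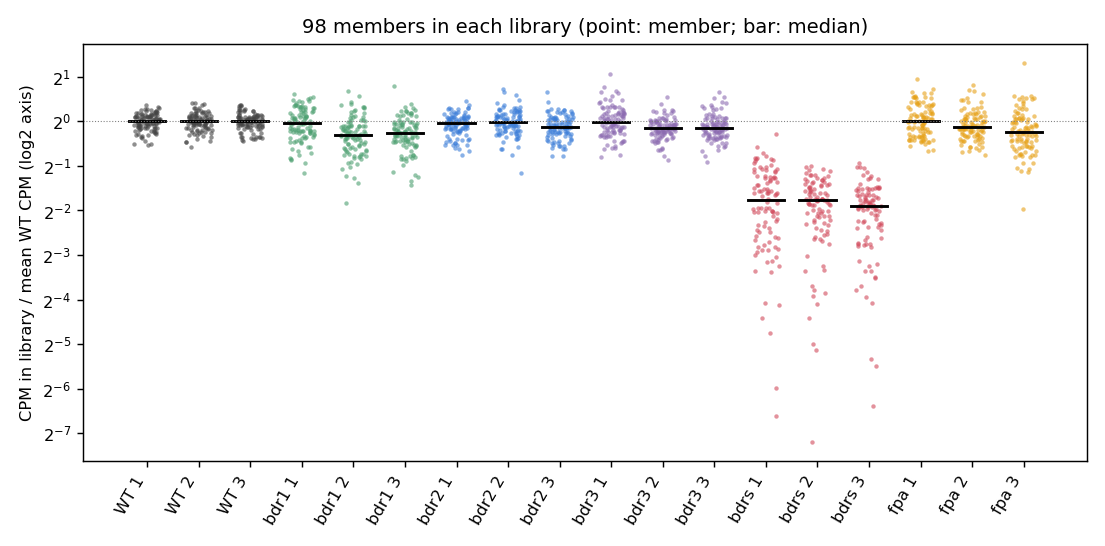
Level of each of the 98 members in each of the 18 libraries, divided by its WT mean, on a log2 axis; each point is a gene and each bar a library median. The *bdrs* medians lie between 0.267 and 0.293, and those of all other libraries between 0.808 and 1.01.

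In the plot of members by library, the 3 *bdrs* libraries had medians of 0.267 to 0.293 of the WT mean. The medians were 0.808 to 0.971 in the *bdr1* libraries, 0.914 to 0.984 in *bdr2*, 0.895 to 0.992 in *bdr3* and 0.842 to 1.01 in *fpa*. The medians of the triple mutant libraries thus stood apart from those of all others. The selection required *bdrs* libraries below WT libraries, and for the single mutants and *fpa* it set limits on the means. As a description of the chosen genes, all *bdr1* libraries were below all WT libraries in 18 members (18.4%, against 4.50% of genes with 2 CPM or more), all *bdr3* libraries in 14 (14.3%, against 4.49%) and all *bdr2* libraries in 4 (4.08%, against 1.98%). In *fpa* this held for 13 members (13.3%, against 15.6%). The selection used these WT libraries and single-mutant means, which favours high WT values and limits low single-mutant values, so nothing is read from these shares.

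AT4G11410, which encodes a Rossmann-fold oxidoreductase-like protein, had the lowest ratio. Its WT libraries held 16.1, 14.5 and 13.5 CPM and its *bdrs* libraries 0.151, 0.0998 and 0.176, so that the groups lay far apart. These *bdrs* values rest on 2, 2 and 3 reads, and over the summed libraries the level was 0.948% of WT (95% interval from 0.380% to 1.96%, exact binomial, counting error only). The *bdr1* libraries held 11.5, 7.16 and 8.18 CPM and the *bdr3* libraries 12.5, 10.9 and 10.9, all below WT. The *bdr2* libraries held 15.4, 14.4 and 13.4 CPM and the *fpa* libraries 19.9, 15.3 and 13.0, and both groups overlapped WT. The gene starts 62 bp after *EIF3A* (AT4G11420), which encodes a subunit of translation initiation factor eIF3.

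AT4G31310, an AIG2-like gene, came next, with 17.6, 12.2 and 13.1 CPM in WT and 0.226, 0.449 and 0.352 in *bdrs*. It starts 2 bp after *PBA1* (AT4G31300), a gene for a beta subunit of the 20S proteasome. The non-coding AT2G14115 held 4.92, 4.16 and 6.66 CPM in WT and 0.301, 0.150 and 0.117 in *bdrs*, on 4, 3 and 2 reads, and over the summed libraries stood at 3.40% of WT (95% interval 1.54% to 6.55%). AT1G20816, for an outer envelope pore-like protein, held 3.28, 3.25 and 3.11 CPM in WT and 0.151, 0.2495 and 0.235 in *bdrs*, and overlaps the end of its upstream gene by 4 bp. In all these genes the highest *bdrs* library was under the lowest WT library many times over.

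AT1G79740, a gene of the hAT transposase superfamily 97 bp after *NADP-ME4* (AT1G79750, a plastid malic enzyme), held 11.8, 17.7 and 15.9 CPM in WT and 0.904, 0.998 and 1.17 in *bdrs*. AT5G52370, annotated as a mitochondrial-type ribosomal S34 protein, held 12.02, 13.5 and 13.1 CPM in WT and 1.36, 0.749 and 0.763 in *bdrs*. Its upstream neighbour at 16 bp, AT5G52380, was weaker than the member, at 0.109 of its WT level per length. AT3G59980, for an OB-fold nucleic acid-binding protein, held 24.1, 23.1 and 22.9 CPM in WT and 2.26, 1.70 and 2.29 in *bdrs*, and lies 63 bp after *MAP2B* (AT3G59990), a methionine aminopeptidase gene. The other 8 of the 15 lowest members had ratios from 0.102 for *NdhM* to 0.144 for *VAMP723* (AT2G33110), a vesicle fusion protein gene. In all 15 the *bdrs* libraries lay below those of every other group.

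**Figure D2:**
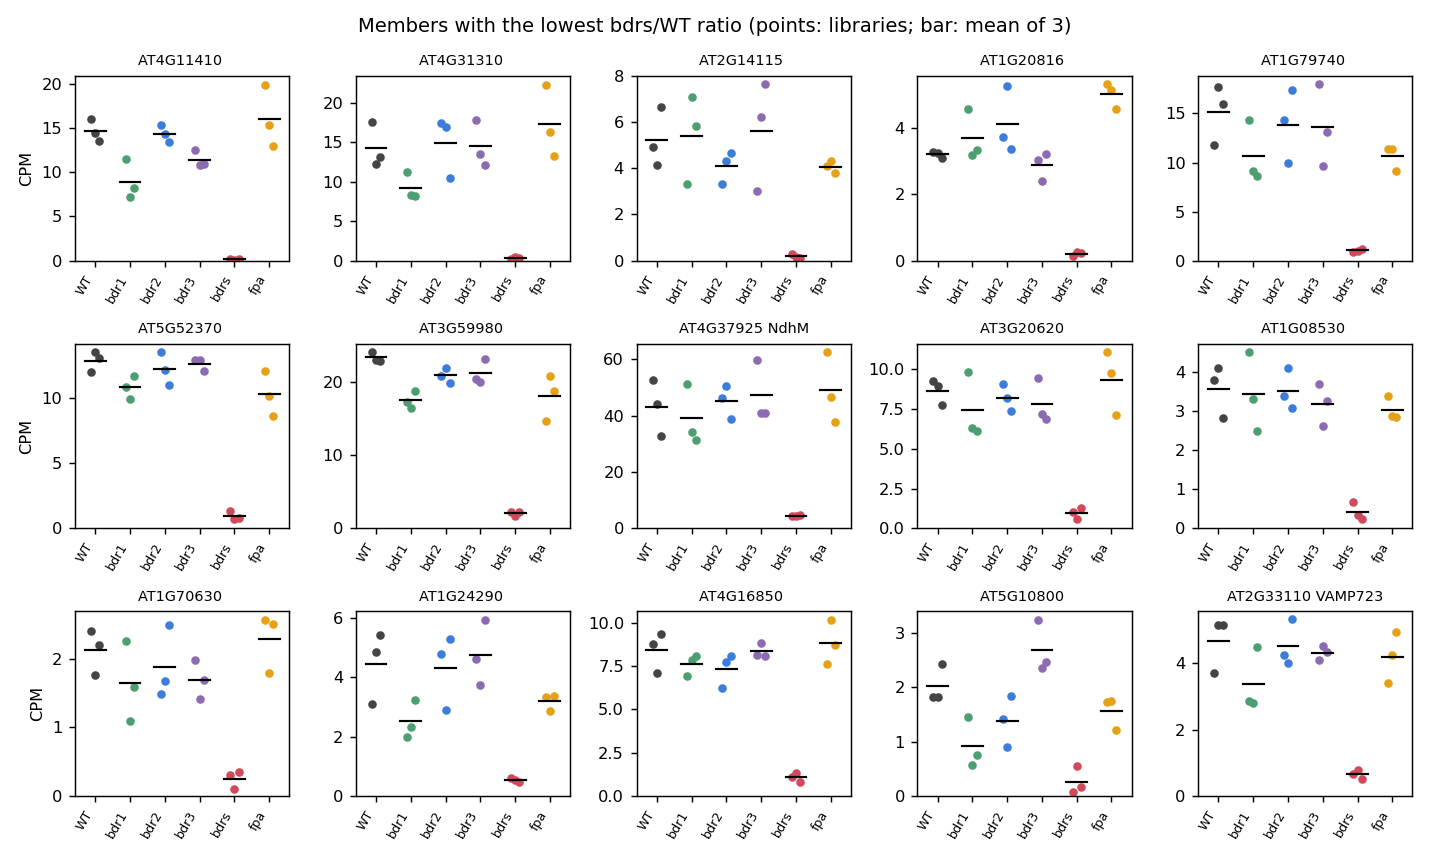
Level in CPM (linear axes from 0, with their own range for each gene) of the 15 members with the lowest ratio of *bdrs* to WT; each point is a library, coloured by group, and each bar a mean of 3. In each gene the 3 *bdrs* points lie under all other points, from 0.0753 CPM for AT5G10800 to 4.69 CPM for *NdhM*.

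Some members encode proteins of the plastid. *NdhM*, which encodes a subunit of the chloroplast NADH dehydrogenase-like (NDH) complex of cyclic electron flow, held 52.5, 44.0 and 32.7 CPM in WT and 4.22, 4.24 and 4.69 in *bdrs*. *PnsL1*, for a lumen subunit of the same complex, held 124, 122 and 114 CPM in WT and 19.5, 24.6 and 29.0 in *bdrs*. In *fpa* both had a mean above WT, with 62.6, 46.4 and 37.8 CPM for *NdhM* and 145, 148 and 128 for *PnsL1*. *NdhM* lies 111 bp after *SHM1* (AT4G37930), the mitochondrial serine hydroxymethyltransferase of photorespiration, and *PnsL1* 56 bp after *RPL23AA* (AT2G39460), a cytosolic ribosomal protein gene. Of the 16 other NDH genes tested, 0 were lower or higher in *bdrs* by edgeR's quasi-likelihood test with Benjamini-Hochberg adjustment, against 2.78% lower and 1.89% higher among all 20143 genes tested, and their median log2 change was -0.20. At an unadjusted p under 0.05, 3 of the 16 were lower and 0 higher.

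*Z-ISO* (AT1G10830), the carotenoid pathway's 15-cis-zeta-carotene isomerase, held 37.4, 44.1 and 48.5 CPM in WT and 10.02, 12.1 and 12.7 in *bdrs*. Of 13 other carotenoid genes, 0 were called in either direction (median log2 change -0.12), and 2 were lower at an unadjusted p under 0.05. *NTRB* (AT4G35460), 1 of the NADPH-dependent thioredoxin reductases, held 33.8, 33.0 and 36.2 CPM in WT and 8.51, 6.84 and 7.16 in *bdrs*, and begins directly at the end of *AKR2* (AT4G35450), with 0 bp between them. The 2 other reductases were not called, nor past an unadjusted p of 0.05, with log2 changes of 0.02 and 0.10. In these lists the member had *bdrs* values well under WT and no other tested gene was called.

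The phosphofructokinase-family gene AT1G20950, for a subunit of the enzyme that interconverts fructose 6-phosphate and fructose 1,6-bisphosphate with pyrophosphate, held 52.2, 56.6 and 51.3 CPM in WT and 18.7, 16.5 and 14.8 in *bdrs*. It overlaps the end of *emb1507* (AT1G20960) by 35 bp. AT5G48630, a C-type cyclin of the Mediator complex, which bridges transcription factors and polymerase II, held 9.32, 7.92 and 7.79 CPM in WT and 3.54, 3.44 and 3.58 in *bdrs*. Its upstream neighbour at 80 bp, AT5G48640, is its close paralog. The authors kept uniquely aligned reads, so that reads matching both copies of such a pair would not be counted, and levels of near-identical copies are uncertain. The same holds for the pairs *TON1A* and *TON1B*, *CRL1* and *CRL2*, AT3G26070 and AT3G26080, *SAR1* and *VAMP723*, and AT5G16990 and AT5G16980, where the second gene of each pair is the member.

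Other genes of the lists were lower in *bdrs* without meeting the selection, and most of them had an *fpa* mean under 0.67 of WT. *ARC6* (AT5G42480), a plastid division gene that lies 162 bp after its tandem neighbour, averaged 34.98 ± 3.88 CPM in WT, 10.05 ± 0.536 in *bdrs* and 23.3 ± 1.58 in *fpa* (n = 3 each), and its log2 change in *bdrs* was -1.81 ± 0.14 (SE, edgeR adjusted p = 4.43e-08). *PHYE* (AT4G18130), a phytochrome whose start overlaps its tandem neighbour by 60 bp, averaged 18.8 ± 3.46 CPM in WT, 4.35 ± 0.352 in *bdrs* and 7.79 ± 1.55 in *fpa* (log2 change -2.12 ± 0.21, edgeR adjusted p = 1.52e-06). The sucrose phosphatase gene AT2G35840 averaged 53.2 ± 2.06, 15.5 ± 1.93 and 34.9 ± 4.06 CPM in the same groups. The Mediator genes AT5G02850 (68 bp from its tandem neighbour) and *REF4* (AT2G48110, 0 bp) had log2 changes of -1.84 ± 0.20 and -0.95 ± 0.17, with edgeR adjusted p of 6.16e-06 and 0.00128. *ISPD* (AT2G02500) of the plastid isoprenoid pathway was lower by a log2 change of -1.24 ± 0.17 (edgeR adjusted p = 1.29e-04), and its upstream gene lies on the opposite strand. By list, edgeR called 1 of 13 plastid division genes, 1 of 5 phytochromes, 1 of 12 sucrose synthesis genes, 2 of 19 Mediator genes and 1 of 7 plastid isoprenoid genes lower, and 0 of each higher. Among all 20143 genes tested, 2.78% were called lower and 1.89% higher. The lists were chosen with earlier results of these data known, so nothing is read from these counts. Over the 12 lists, edgeR called 34 genes that are not members and DESeq2 36. Most of the 34 by edgeR, 26 genes, came from the seed maturation list, and 2 were *BDR1* and *BDR2* themselves. At an unadjusted p under 0.05, 1 Mediator gene and 1 sucrose synthesis gene were higher.

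The seed maturation list held no member. Of its 37 tested genes, edgeR called 26 lower and 0 higher in *bdrs* (median log2 change -1.34), against 2.78% and 1.89% of all genes tested. At an unadjusted p under 0.05 the list had 32 lower and 1 higher. Its summed level was 1065 to 1626 CPM in WT, 660 to 726 in *bdr1*, 404 to 581 in *bdrs* and 215 to 273 in *fpa*, so that *bdr1* and *fpa* were below WT as well. Its part in the values of the members was not tested. Of the 12 root markers and 8 leaf markers, 0 were called by edgeR in either direction, and 1 root marker was higher at an unadjusted p under 0.05.

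The arrangement of the genes, which the selection did not use, differed between the members and the other genes as counted here, without a test. Of the 98 members, 95 (96.9%) had their nearest upstream gene on the same strand, against 49.9% of the 16470 other genes with a WT mean of 2 CPM or more. In 81 members (82.7%) that tandem neighbour ended 0 to 500 bp before the member's start, against 21.7%, and in 10 more (10.2%) the pair overlapped, against 1.99%. The median tandem distance was 56 bp in the members (quartiles 13.5 and 121.5 bp) and 549 bp in the others (163.5 and 1497.5 bp). On the downstream side the next gene was on the same strand in 52.0% of the members and 48.4% of the others.

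**Figure D3:**
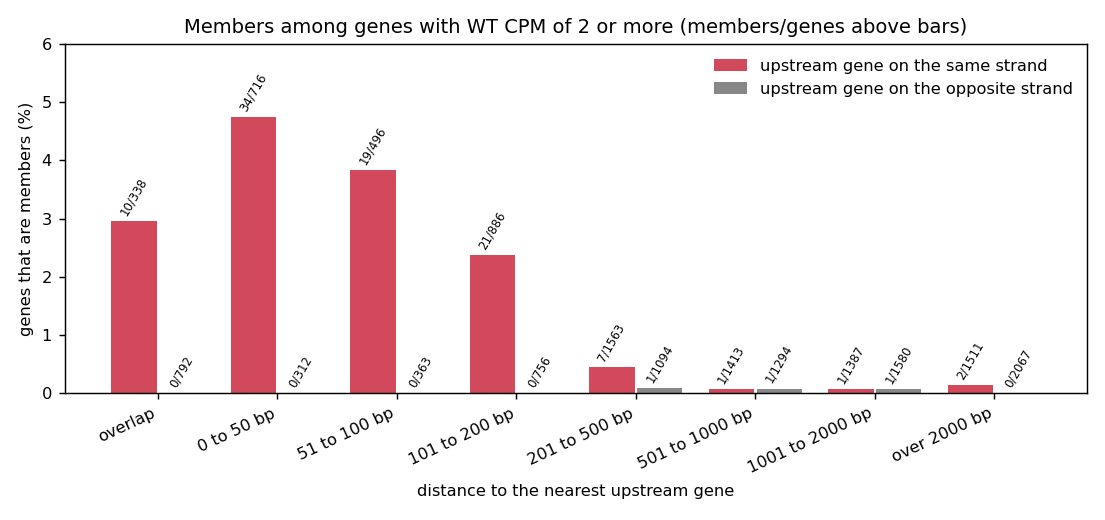
Percent of genes with a WT mean of 2 CPM or more that are members, by distance to the nearest upstream gene and by whether that gene lies on the same or the opposite strand. On the same strand the share is 4.75% at 0 to 50 bp and 0.448% at 201 to 500 bp, and on the opposite strand it is 0 for genes up to 200 bp away.

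The share of genes that were members depended on strand and distance together. On the same strand, members made up 10 of 338 overlapping genes (2.96%), 34 of 716 at 0 to 50 bp (4.75%), 19 of 496 at 51 to 100 bp (3.83%) and 21 of 886 at 101 to 200 bp (2.37%). Beyond that the share was lower, with 7 of 1563 at 201 to 500 bp (0.448%) and 1 of 1413 at 501 to 1000 bp (0.0708%). With the upstream gene on the opposite strand, 0 of 792 overlapping genes, 0 of 312 at 0 to 50 bp, 0 of 363 at 51 to 100 bp and 0 of 756 at 101 to 200 bp were members. Farther away the opposite strand held 1 of 1094 at 201 to 500 bp (0.0914%), 1 of 1294 at 501 to 1000 bp (0.0773%) and 1 of 1580 at 1001 to 2000 bp (0.0633%). Beyond 500 bp every class on either strand held at most 2 members. Within the members the median ratio of *bdrs* to WT was 0.301 for overlapping pairs, 0.271 at 0 to 50 bp, 0.267 at 51 to 100 bp, 0.281 at 101 to 200 bp and 0.355 at 201 to 500 bp.

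After *CSD2*, the most abundant members were AT5G51970, with 167, 155 and 125 CPM in WT and 73.6, 57.9 and 43.9 in *bdrs*, *PnsL1*, and AT1G73650, with 93.7, 82.3 and 87.1 CPM in WT and 41.96, 32.7 and 24.6 in *bdrs*. In both of the genes whose values are given here, *bdrs* library 1 was the highest of its group. In *PnsL1* (19.5, 24.6 and 29.0 CPM) it was the lowest.

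A few members had no close tandem neighbour. *CSD2* (AT2G28190), the chloroplast copper/zinc superoxide dismutase and the most abundant member, held 855, 755 and 728 CPM in WT and 368, 257 and 270 in *bdrs*, and its upstream gene lies 672 bp away on the opposite strand. AT1G47820 and AT4G37700 also had their upstream gene on the opposite strand, at 477 and 1532 bp. For AT4G37700 the *bdrs* libraries held 5.57, 1.90 and 1.35 CPM, and library 1 was close to the lowest WT value of 5.76. The upstream tandem gene was far away for *CYP81D11* (AT3G28740, 945 bp), AT1G32740 (1351 bp), *AIR1* (AT4G12550, 4256 bp) and AT2G22122 (4807 bp).

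Upstream neighbours of members were well expressed. Among the 81 members within 500 bp, the neighbour had a median WT level of 21.5 RPKM, against 4.09 for the neighbours of other genes in that arrangement. The neighbour stood above the downstream gene, per length, in 65 of the 81 (80.2%), against 33.3%, and the median ratio of neighbour to gene was 3.02 against 0.361. Of 3661 genes with a tandem neighbour within 500 bp, 133 had a neighbour without a level in the count table. When the other 3528 were ranked by the neighbour's WT level, the lowest 1176 held 3 members (0.255%), the middle 1176 held 17 (1.45%) and the highest 1176 held 61 (5.19%). In that highest class, members were 25 of 261 genes at 0 to 50 bp (9.58%) and 5 of 441 at 201 to 500 bp (1.13%). Among the members themselves, those with lower and those with higher neighbour levels had the same median ratio of *bdrs* to WT, 0.279.

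**Figure D4:**
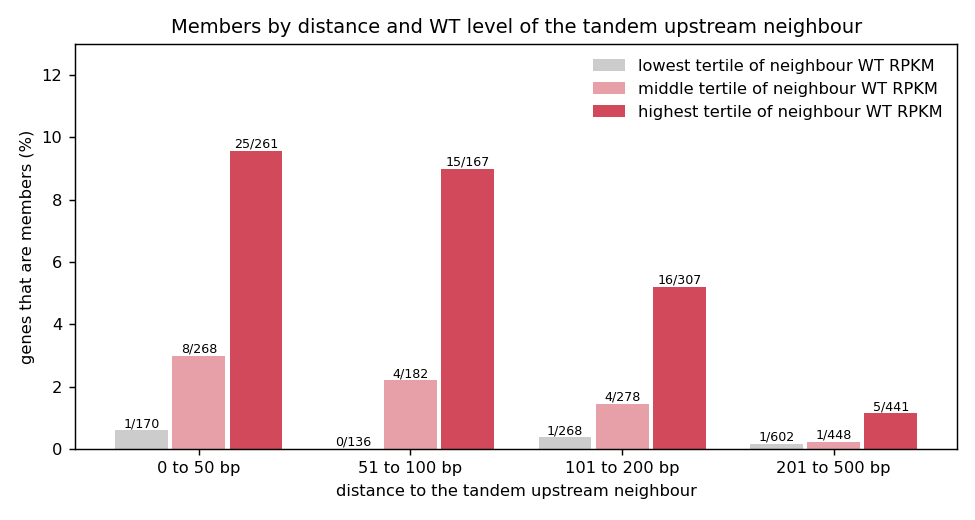
Percent of genes that are members among genes with a tandem upstream neighbour within 500 bp, by the neighbour's WT level in RPKM (lowest, middle and highest 1176 genes) and by distance. The share rises from 0.255% to 5.19% over the neighbour classes, and reaches 9.58% at 0 to 50 bp in the highest class.

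AT1G78910, a pseudouridine synthase-family gene with 2.75, 3.25 and 2.15 CPM in WT and 0.452, 0.449 and 0.528 in *bdrs*, follows *VHA-A* (AT1G78900), the catalytic subunit of the vacuolar proton ATPase, whose WT level per length was 99.5 times higher. Ribosomal protein genes preceded AT3G09190 (L10), AT3G55760 (L35Ae), AT1G22790 (*PFL*), AT3G53880 (S3), AT1G56050 (L41) and AT2G41835 (S5). Both isopentenyl diphosphate isomerase genes were followed by a gene for an RraA-like protein that was a member. AT5G16450 lies 10 bp after *IPP1* and held 13.8, 11.5 and 14.1 CPM in WT and 5.27, 3.94 and 4.64 in *bdrs*. AT3G02770 lies 1 bp after *IPP2* and held 18.6, 15.2 and 18.8 CPM in WT and 7.31, 7.59 and 7.28 in *bdrs*. Coatomer beta′ genes (AT1G52360 and AT3G15980) preceded AT1G52370, for a ribosomal L22-family protein, and AT3G15970, for a nucleoporin 50-like protein. These neighbours were singled out after their values were seen, and neither gene family was counted among the neighbours of other genes.

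The neighbours' own values were not used by the selection and could be tested. Of 91 tandem upstream neighbours within 500 bp or overlapping, 89 were tested, and 2 (2.25%) were lower and 0 higher in *bdrs* by edgeR, beside 2.78% and 1.89% of all genes. At an unadjusted p under 0.05, 5 were lower and 3 higher, and DESeq2 also called 0 higher. The median log2 change was 0.03 (quartiles -0.13 and 0.14, range -0.96 to 0.65), against 0.01 for all genes. *EIF3A* held 83.6, 77.9 and 63.6 CPM in WT and 68.6, 85.4 and 85.7 in *bdrs* (log2 change 0.08 ± 0.21, edgeR adjusted p = 0.913), beside the near-complete loss of AT4G11410. *PBA1* had a log2 change of 0.19 ± 0.15, *RPL23AA* of -0.08 ± 0.15, and *TIF3H1* (AT1G10840), the eIF3 subunit gene 50 bp before *Z-ISO*, of -0.18 ± 0.14 (SE, edgeR), none of them called.

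**Figure D5:**
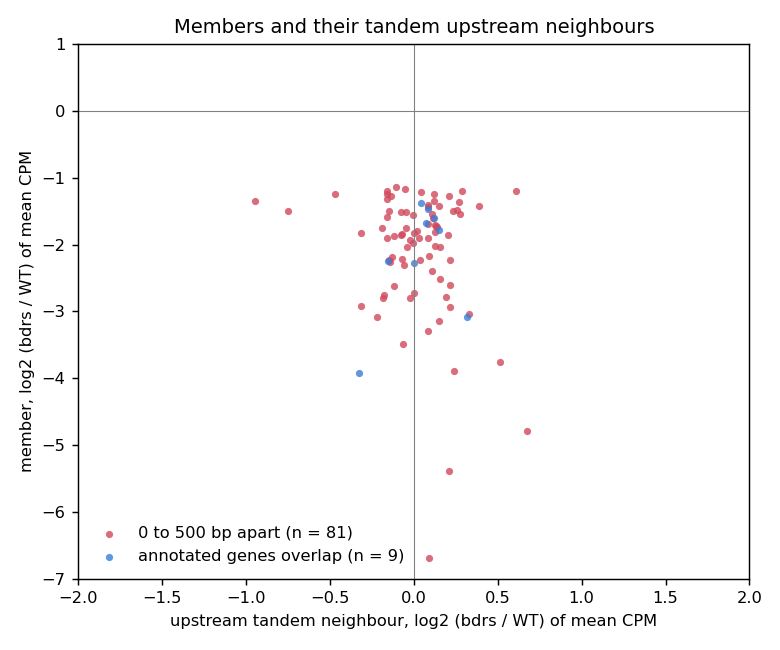
Log2 ratio of *bdrs* to WT mean CPM of each member (vertical) against that of its tandem upstream neighbour (horizontal), for 90 pairs, 81 of them apart and 9 overlapping. Neighbours' ratios run from 0.519 to 1.59, while the members lie between 0.00969 and 0.455.

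AT2G43945, 54 bp upstream of *HOL3* (AT2G43940, a methyltransferase gene), was 1 of the 2 neighbours called lower. It held 45.7, 42.1 and 40.0 CPM in WT and 28.6, 22.5 and 24.8 in *bdrs* (log2 change -0.77 ± 0.13, edgeR adjusted p = 7.56e-04). AT5G51960, an LYR-family gene 20 bp upstream of AT5G51970, a zinc-binding alcohol dehydrogenase-like gene, held 8.32, 6.499 and 6.72 CPM in WT and 4.14, 3.99 and 3.05 in *bdrs* (log2 change -0.96 ± 0.22, edgeR adjusted p = 0.0128). Here the member is the stronger gene, and the neighbour's WT level per length was 0.077 of the member's. Both neighbours had all *bdrs* libraries below all WT libraries. Without WT library 1 or without *bdrs* library 3, 1 neighbour was called in place of 2.

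Of the nearest downstream genes, 71 of 98 were tested in *bdrs*, and 0 were lower or higher by edgeR. At an unadjusted p under 0.05, 6 were lower and 4 higher, DESeq2 called 1 lower, and the median log2 change was 0.01. In the single mutants, edgeR called 0 upstream and 0 downstream neighbours, beside 0.0248% of all genes in *bdr1*, 0.0397% in *bdr2* and 0.0199% in *bdr3*. At an unadjusted p under 0.05, 5 upstream neighbours were lower and 4 higher in *bdr1*, 0 and 0 in *bdr2*, and 2 and 2 in *bdr3*. Among downstream neighbours these counts were 1 and 1, 0 and 0, and 0 and 1.

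In *fpa*, 3 upstream neighbours were lower (3.37%, against 3.12% of all genes) and 3 higher (3.37%, against 1.31%). Those lower were *emb1507*, AT1G49340 and AT3G05680, and those higher AT1G56045, AT2G43945 and AT3G55750. Downstream, 4 were lower (5.63%, against 3.12% of all genes) and 0 higher (against 1.31%). At an unadjusted p under 0.05, 15 upstream neighbours were lower and 16 higher, and 16 downstream neighbours were lower and 3 higher. AT2G43945 was thus lower in *bdrs* and higher in *fpa*. Among the members, the *fpa* ratios ran from 0.672 for AT3G08840 to 2.06 for AT2G22122, and 38 of the 98 were above 1. After AT3G08840, the lowest were AT3G05675 (0.676), AT5G16980 (0.679), AT5G45560 (0.686) and AT1G79740 (0.702), and before AT2G22122 the highest were AT1G20816 (1.56), AT1G20120 (1.44), AT5G64816 (1.37) and AT5G54880 (1.35). AT2G22122 held 51.6, 30.4 and 54.6 CPM in WT, 26.6, 10.3 and 11.97 in *bdrs*, and 88.3, 80.0 and 113 in *fpa*. Among the 98 members, edgeR called 1 lower in *fpa* (AT3G08840) and 1 higher (AT1G20816), beside 3.12% and 1.31% of all genes. The selection used the *fpa* means, so nothing is read from these calls.

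In the single mutants, the lowest member ratios came from AT5G10800, an RRM-protein gene, in *bdr1* (0.458) and *bdr2* (0.684), and from *PSRP3/2* (AT5G15760), for a plastid ribosomal protein, in *bdr3* (0.683). AT5G10800 held 1.82, 1.82 and 2.43 CPM in WT, 1.45, 0.569 and 0.757 in *bdr1*, 1.41, 0.902 and 1.84 in *bdr2*, and 0.0753, 0.549 and 0.176 in *bdrs*, on 1, 11 and 3 reads in the last group. *PSRP3/2* held 3.05, 3.08 and 3.39 CPM in WT, 2.17, 2.28 and 2.04 in *bdr3* and 0.829, 0.799 and 1.29 in *bdrs*. AT5G10800 had all *bdr1* libraries below WT, but its *bdr2* libraries overlapped WT and its ratio in *bdr3* was 1.32. *PSRP3/2* had all *bdr3* libraries below WT.

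The edges of the set were gradual. Just inside the limit of 0.5 on the ratio to the lowest mean lay AT4G40045 (0.498), AT3G01380 (0.497), AT5G65250 (0.496), *SCPL7* (AT3G10450, 0.495) and AT1G32740 (0.495). Just outside lay AT1G18060 (0.502), AT3G49860 (0.503), AT1G45015 (0.503), AT4G26550 (0.505) and AT1G19130 (0.507). In all, 312 genes had a WT mean of 2 CPM or more and a *bdrs* mean of at most 0.5 of WT. Of the genes that missed a single condition, 59 missed the one on the single mutants and 55 the one on *fpa*. A tandem neighbour within 500 bp or overlapping was present in 38 of those 59 and 34 of those 55. It was present in 92.9% of the members. Of other genes with a WT mean of 2 CPM or more, 21.7% had it within 500 bp and 1.99% overlapping. *BDR1* itself missed on the single mutants, since *bdr1* was low. AT1G09910 missed on *fpa*, with means of 13.8 CPM in WT, 0.190 in *bdrs* and 5.58 in *fpa*, as did AT3G52155, with 16.6, 1.29 and 7.93.

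Because the selection used all libraries, it was repeated on 2 libraries a group and read in the library left out, a step added after the data were seen. Chosen without library 1, 101 genes (73 of them members) had a median ratio of *bdrs* to WT of 0.383 in that library. Of these, 68 (67.3%) were at 0.5 or less, against 1.87% of all genes. Chosen without library 2, 106 genes (81 members) had a median of 0.295, and 98 (92.5%, against 2.22%) were at 0.5 or less. Chosen without library 3, 104 genes (79 members) had a median of 0.285, and 92 (88.5%, against 3.06%) were at 0.5 or less. The repeat in library 1 was the weakest, and it changed library 1 of every group at once. *bdrs* library 1 is rich in ribosomal RNA. Chosen without *bdrs* library 1 alone, the set had 130 genes in place of 98, and the share with a tandem neighbour within 500 bp was 70.5% in place of 82.7%. The part of ribosomal RNA in this was not tested.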

How the data were processed

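Polyadenylated RNA of the 18 seedling libraries was sequenced from a strand-marking kit. The authors deposited raw counts per gene of uniquely aligned reads for TAIR10, and the submitters' processing notes name STAR 2.5.2b, SAMtools 1.3.1, featureCounts, DESeq2 1.14.1 and R 3.3.2. The strand setting used in counting is not given in the sources used here. Counts of overlapping genes are therefore uncertain. The authors also deposited a normalized signal table, which was not used. CPM were counts over column totals, and RPKM were CPM per kilobase of exon. Positions came from RefSeq TAIR10.1, since the counts carry none. Tests used edgeR 4.0.16 (R 4.3.3, TMM, filterByExpr, quasi-likelihood fit of all groups, 20143 genes, adjusted p under 0.05), which was tested on simulated data. DESeq2 1.42.0, other thresholds, left-out libraries and a replicate block were alternatives. The members and the 12 gene lists were chosen with earlier results of these data known. Named genes were the 15 lowest members, the 10 most abundant, list genes, called neighbours, and those at the limits of the rule. Columns that matched no sample numbered 0. The limit of each low value is its number of reads, and intervals cover counting error only.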

Additional observations from a re-analysis of the deposited data

How the results depend on the processing

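The number of members was 98, and 58 or 168 with a ratio limit of 0.4 or 0.6. It was 113 with TMM-scaled CPM, 114 with DESeq2 size factors, and 87 to 130 when 1 library of any group was left out. The share of members with a tandem neighbour within 500 bp was 82.7%, and 92.9% with overlapping pairs counted, 71.4% for members chosen with the 3 most ribosomal RNA-rich libraries left out, and 69.0% for members chosen without library 1 of every group (both added after the data were seen). Leaving out 1 library of any group gave 70.5% to 84.4% (the *bdr1*, *bdr2*, *bdr3* and *fpa* libraries were added after the data were seen). Upstream neighbours called lower in *bdrs* numbered 2, and 1 to 2 when 1 WT or *bdrs* library was left out. None was called higher under any alternative. Downstream neighbours called lower numbered 0, and 1 with DESeq2, 1 with the replicate block, 0 to 1 with 1 such library left out and 2 with *bdrs* 1, *fpa* 3 and *bdr1* 3 all left out. Those called higher numbered 0, and 0 to 2 with 1 such library left out and 2 without those 3 libraries. The causes were not tested. Whether replicate numbers pair the samples was not settled. Deviations of same-numbered WT and *bdrs* libraries correlated at 0.269, 0.385 and 0.0279. Libraries of unlike number correlated at -0.314 to 0.0658, and *bdrs* library 3 correlated best with WT library 2 (0.0658). With the replicate block, 2 upstream neighbours and 38 list genes were called, against 2 and 34 without it. Low members such as AT4G11410 rest on few reads, which limits their ratios.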

Other observations

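*CSD2* is 1 of the few members without a close tandem neighbour, and other genes of copper use are given beside it as values. They were chosen after values were seen, and no test was made. The cytosolic copper/zinc superoxide dismutase *CSD1* averaged 202 ± 38.7 CPM in WT and 120 ± 13.7 in *bdrs* (SD, n = 3). The copper chaperone for these enzymes, *CCS*, averaged 99.4 ± 17.6 CPM in WT and 47.9 ± 5.49 in *bdrs*. The plantacyanin gene *ARPN* averaged 7.53 ± 2.14 and 3.04 ± 0.443 CPM. The *bdrs* libraries of all these genes lay below the WT libraries. Among all genes with a WT mean of 2 CPM or more, 8.90% had all *bdrs* libraries below WT and 8.00% had all above. The iron superoxide dismutase *FSD1* averaged 628 ± 108 CPM in WT and 1152 ± 73.3 in *bdrs*, the copper transporter *COPT2* 10.2 ± 0.206 and 20.9 ± 2.86, and the copper chaperone *CCH* 183 ± 36.7 and 262 ± 16.8, with all *bdrs* libraries above WT. In *fpa* they averaged 853 ± 163 CPM for *FSD1*, 15.3 ± 0.779 for *COPT2* and 261 ± 33.5 for *CCH*, the last 2 with all *fpa* libraries above WT. In *bdr1*, *FSD1* averaged 782 ± 70.6 CPM and *COPT2* 13.0 ± 0.190, both with all *bdr1* libraries above WT. Among all genes with a WT mean of 2 CPM or more, all libraries were above WT in 9.09% for *fpa* and 1.71% for *bdr1*. In *fpa*, *CSD1* averaged 215 ± 46.6 CPM, *CCS* 75.3 ± 16.1 and *ARPN* 5.37 ± 0.692. For the transporter *COPT1* (115 ± 10.1 and 133 ± 13.9 CPM) the lowest *bdrs* library was level with the highest WT library. The copper regulator *SPL7* (25.2 ± 2.92 and 26.5 ± 5.40) and plastocyanin *PETE2* (3613 ± 473 and 3211 ± 315) had overlapping groups.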
